A study of Mus musculus with 2 samples.

Results

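The genes described are those of the mitochondrial genome, chosen as every gene whose symbol starts with mt-. They number 37 of the 55536 annotated genes in the gene tables, and comprise 13 protein genes, 2 rRNA genes and 22 tRNA genes. The samples form a single group of 2 total RNA libraries (biological replicates 2 and 1, made from animals numbered 4 and 3). Both come from the gastrocnemius, a muscle of the calf, of B6CASTF1/J females at an age of 4 days. B6CASTF1/J mice are first-generation hybrids of C57BL/6J and CAST/EiJ, and the labels name no treatment. Each library started from 300 ng of RNA, with ERCC spike-ins, and is a ribosomal RNA reduced one. Both libraries carry 1 donor record, so whether they came from separate litters is not known. By the naming custom of mouse hybrids the first strain is the mother's, and mitochondrial DNA passes through the mother, so these genes would be those of C57BL/6J, which the mm10 reference represents. That was not checked in reads here.

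The mitochondrial genome is a small circle that is copied into RNA as long transcripts from both strands. Most tRNA genes lie between the protein and rRNA genes, and their excision frees many of the individual messengers, most of which are then polyadenylated. The proteins are core subunits of respiratory complexes I, III and IV and of the ATP synthase, complex V, and all other subunits are made from nuclear genes. The rRNAs and tRNAs serve the mitochondrial ribosome. Skeletal muscle draws much of its ATP from this system.

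The libraries held 36246031 expected counts in replicate 2 and 30961087 in replicate 1, where an expected count is the authors' estimate of the reads of a gene and need not be whole. Skeletal muscle markers were high in both libraries, with skeletal actin Acta1 at 13964 TPM in replicate 2 and 11663 TPM in replicate 1. TPM is a level scaled for gene length and library depth. Of the markers of other tissues, the summed TPM of 3 red cell genes was 227 in replicate 2 and 1219 in replicate 1. That of 2 neutrophil genes was 10.05 and 56.1, and that of 2 liver genes 60.2 and 5.80, in replicates 2 and 1. The 2 brown fat genes summed to 5.90 and 5.83 TPM, with Ucp1 at 0.04 TPM and 0.35 TPM. With 1 group and 2 libraries the design holds no contrast between conditions, so no p-value is given, and error is stated as the SD of the 2 values. Whether that spread is between animals or technical cannot be told apart.

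The sequences show why several of these genes cannot be read alone. A block of chromosome 1 in build mm10 holds 7 annotated pseudogene copies of mitochondrial genes, all on the minus strand and all within the interval chr1:24611535-24616197. Gm28661 is an exact copy of the first 681 of the 684 bases of mt-Co2, Gm10925 of the first 678 of the 681 bases of mt-Atp6, and Gm28437 of the first 783 of the 784 bases of mt-Co3. Each copy has 100% identity over its length. The ends of the 3 pairs follow, 5′ to 3′, from the GENCODE M21 transcripts, with capitals on the bases that only the mitochondrial gene has.
mt-Co2 (chrM:7674-7696, plus strand): actgatctgcttcaataattTAA
Gm28661 (chr1:24614885-24614904, minus strand): actgatctgcttcaataatt
mt-Atp6 (chrM:8585-8607, plus strand): tatatctacatgataatacaTAA
Gm10925 (chr1:24613974-24613993, minus strand): tatatctacatgataataca
mt-Co3 (chrM:9370-9390, plus strand): ccatttattgatgaggatctT
Gm28437 (chr1:24613189-24613208, minus strand): ccatttattgatgaggatct

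The gene tables set the effective length at the length minus 99 nt, which is the number of places where a read of 100 nt can start inside a gene. The read length itself is inferred from this offset. Of the 585 stretches of 100 nt in mt-Co2, 582 occur in Gm28661 too. The shared number is 579 of 582 for mt-Atp6 and Gm10925, and 684 of 685 for mt-Co3 and Gm28437. A read from these genes therefore fits gene and copy equally well in nearly every position. Of the other copies in the block, Gm10222 shares 195 of the 198 stretches of mt-Nd4l and Gm28438 shares 243 of the 249 of mt-Nd3. Gm28438 differs from the first 345 bases of mt-Nd3 by 1 substitution, T3C, counted from the 5′ end of mt-Nd3. Gm28439 covers the first 876 bases of mt-Nd4 without a difference, and Gm29216 shares 380 of the 1446 stretches of mt-Co1. Both rRNA genes, mt-Nd1, mt-Atp8, mt-Nd5, mt-Nd6 and mt-Cytb share no 100-nt stretch with any other transcript, and mt-Nd2 shares 30 of 939.

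The division of the shared reads differed between gene and copy and between estimates. In the gene tables mt-Co2 held 3545 counts in replicate 2 and 1044 in replicate 1, and its copy Gm28661 held 127196 in replicate 2 and 123799 in replicate 1. The copy thus took 97.3% of the pair in replicate 2 (95% exact Clopper-Pearson interval 97.2% to 97.4%) and 99.2% in replicate 1 (99.1% to 99.2%). Such intervals treat the rounded expected counts as if every read had been assigned with certainty. They leave out the error of dividing the shared reads, and that of PCR copies of a molecule, which could not be recognised. Gm10925 took 70.5% of its pair with mt-Atp6 in replicate 2 and 80.6% in replicate 1. Gm28437 took 80.8% of its pair with mt-Co3 in replicate 2 and 82.1% in replicate 1. Over the 3 pairs, the copies took 83.1% of counts in replicate 2 and 87.8% in replicate 1.

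The authors' posterior mean counts, a second estimate in the same tables, divided the same reads otherwise. There Gm28661 took 87.2% and 90.3%, Gm10925 65.2% and 73.8%, and Gm28437 56.6% and 56.8% in replicates 2 and 1. In the other deposited quantification, made from the reads without the transcriptome alignments, Gm10925 took 9.09% in replicate 2 and 24.7% in replicate 1, and the mitochondrial gene held most of that pair. The copies still took most of the other pairs there, with 89.6% and 93.5% for Gm28661 and 68.5% and 74.9% for Gm28437 in replicates 2 and 1. For mt-Co2 the deposited TPM was 191 in replicate 2 and 63.7 in replicate 1. It lay below the authors' own interval of 511 to 1175 TPM in replicate 2 and 408 to 1068 TPM in replicate 1. That interval encloses their posterior mean TPM, which was 884 in replicate 2 and 721 in replicate 1. The level of any of these 3 genes or copies alone is therefore not usable. Below, each is given as the sum with its copy, and these sums cannot show whether the chromosome 1 block itself is transcribed.

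**Figure D1:**
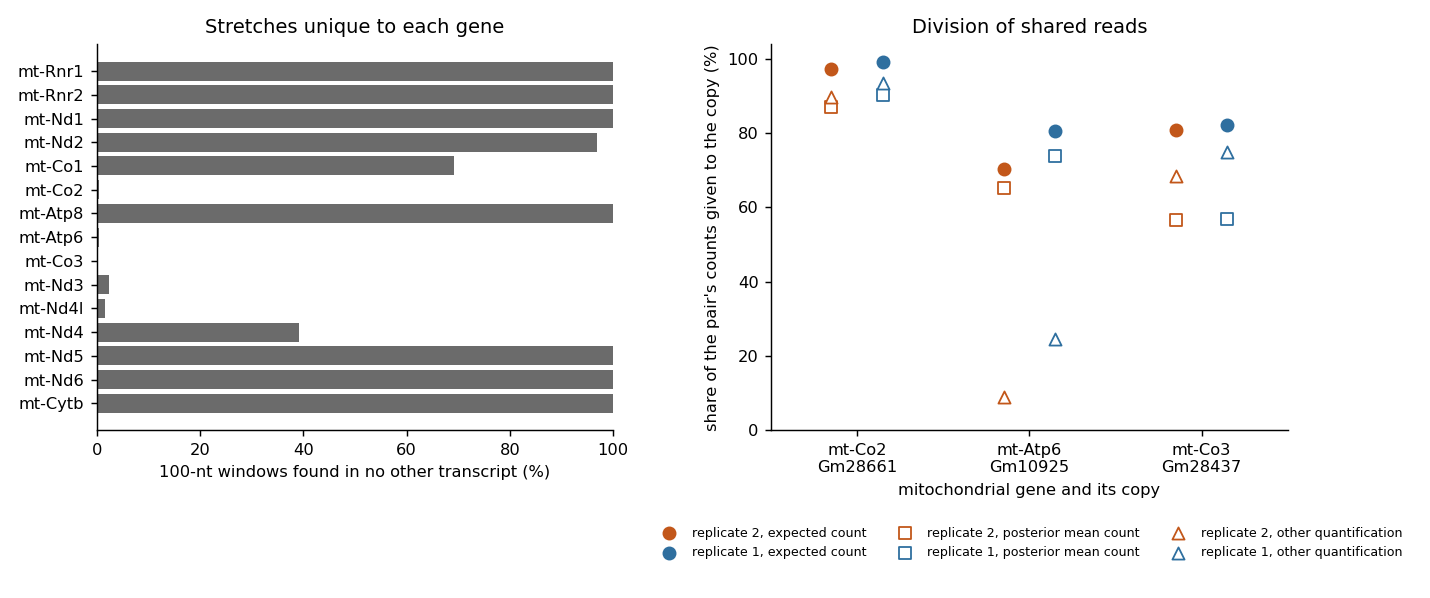
The left plot gives, for each rRNA and protein gene, the percentage of its 100-nt stretches found in no other transcript, and the right plot the percentage of the counts of each pair given to the chromosome 1 copy in each library (colour) by 3 estimates (symbol). mt-Co2, mt-Atp6 and mt-Co3 have under 1% unique stretches, and the share given to Gm10925 runs from 9.09% to 80.6% depending on the estimate and library.

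Mitochondrial genes with the 3 copies took 9.004% of all expected counts in replicate 2 and 9.61% in replicate 1 (9.30% ± 0.426, SD, n = 2). The rRNA genes made up 6.16% of all counts in replicate 2 and 6.50% in replicate 1, and the protein genes 2.85% in replicate 2 and 3.10% in replicate 1. Without the mitochondrial rRNA genes the mean share was 3.17%. By TPM the mitochondrial share was 9.59% in replicate 2 and 10.03% in replicate 1. In bulk tissue, fewer mitochondria-rich cells and less mitochondrial RNA per cell cannot be told apart.

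All 13 protein genes were detected, and by TPM they spanned 20.2-fold in replicate 2 and 20.6-fold in replicate 1. The complex IV genes and mt-Atp6 were at the top, mt-Cytb of complex III and mt-Nd1 followed, then mt-Atp8, and the other complex I genes were at the bottom. Of the 13 genes, 10 had the same place in both libraries. Of the 12 pairs of neighbours in the order of means, 7 had library ranges that did not overlap and 5 had ranges that did.

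Complex IV, cytochrome c oxidase, passes electrons to oxygen. Its core subunit gene mt-Co1 (chrM:5328-6872), which encodes the subunit where oxygen is reduced, reached 6058 TPM in replicate 2 and 6037 TPM in replicate 1 (6047 ± 15.0 TPM). mt-Co2 (chrM:7013-7696), which encodes the subunit that accepts electrons from cytochrome c, reached 7072 TPM in replicate 2 and 7662 TPM in replicate 1 with its copy. mt-Co3 (chrM:8607-9390), the gene of a core subunit without redox centres, reached 5544 TPM in replicate 2 and 5362 TPM in replicate 1 with its copy. The values of the 3 genes did not overlap, and mt-Co2 was 1.17-fold above mt-Co1 in replicate 2 and 1.27-fold in replicate 1. Here mt-Co1 was taken without its own partial copy, Gm29216. For the sum over every copy of the chromosome 1 block, copy counts were instead scaled by the effective length of the mitochondrial gene. On that measure mt-Co2 had 7036 TPM in replicate 2 and 7623 TPM in replicate 1. mt-Co1 then had 6805 TPM in replicate 2 and 6709 TPM in replicate 1. mt-Co2 thus stayed above mt-Co1 in both libraries on that measure, but by less. Gm29216 itself, with an effective length of 393 nt, had 2747 TPM in replicate 2 and 2475 TPM in replicate 1. Added in full, as for the other copies, these values would put mt-Co1 above mt-Co2 in both libraries. Without Gm29216, complex IV held 46.8% of the summed TPM of the 13 protein genes in replicate 2 and 44.5% in replicate 1.

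Complex V makes ATP, and its mitochondrial genes overlap. mt-Atp6 (chrM:7927-8607) encodes the subunit a that carries protons to the rotor, and reached 6739 TPM in replicate 2 and 7154 TPM in replicate 1 with its copy. mt-Atp8 (chrM:7766-7969) encodes a short membrane subunit, and reached 1622 TPM in replicate 2 and 2320.5 TPM in replicate 1. Its libraries were further apart than those of any other protein gene relative to the mean (1971 ± 494 TPM). Both genes share 43 bases in different reading frames and are known to be read from a single messenger. mt-Atp8 was at 0.241 of the mt-Atp6 level in replicate 2 and 0.324 in replicate 1. The shared bases are in capitals.
mt-Atp8 into mt-Atp6 (chrM:7907-7989, plus strand): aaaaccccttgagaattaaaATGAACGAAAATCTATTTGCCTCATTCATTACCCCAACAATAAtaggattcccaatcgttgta

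mt-Atp8 is the shortest protein gene at 204 nt. It has the fewest places for a 100-nt read, and its TPM rests on 5410 counts in replicate 2 and 6821 in replicate 1. In the other quantification its effective length was 45.4 nt in replicate 2 and 43.2 nt in replicate 1, and it was listed at 0 counts in both. A read that crosses from one gene into the other lies within neither annotated gene. How the authors' counting treated such reads was not stated in the labels or headers.

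Another pair of genes is known to share a messenger, and its levels were close. mt-Nd4l (chrM:9877-10173) and mt-Nd4 (chrM:10167-11544) encode membrane subunits of complex I. mt-Nd4l had 1583 TPM in replicate 2 and 1606 in replicate 1, and mt-Nd4 had 1568 TPM in replicate 2 and 1760 TPM in replicate 1. Their ranges overlapped, and the ratio of mt-Nd4l to mt-Nd4 was 1.01 in replicate 2 and 0.912 in replicate 1. They share 7 bases, shown in capitals.
mt-Nd4l into mt-Nd4 (chrM:10147-10193, plus strand): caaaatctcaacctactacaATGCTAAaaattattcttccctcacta

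Complex I takes electrons from NADH, and its 7 mitochondrial genes all encode subunits of the membrane arm. mt-Nd1 (chrM:2751-3707), which encodes the subunit at the junction with the peripheral arm, was the highest of them with 2679 TPM in replicate 2 and 3078 TPM in replicate 1. mt-Nd2 (chrM:3914-4951), which follows it with only tRNA genes between, had 1000.5 TPM in replicate 2 and 1177 in replicate 1, and mt-Nd1 was 2.68-fold and 2.61-fold higher in replicates 2 and 1. mt-Nd3 (chrM:9459-9806) had 1252 TPM in replicate 2 and 1390 TPM in replicate 1. mt-Nd5 (chrM:11742-13565), one of the antiporter-like subunits, had 1527 TPM in replicate 2 and 1654 TPM in replicate 1. The ranges of mt-Nd4, mt-Nd4l and mt-Nd5 overlapped from neighbour to neighbour, and that of mt-Atp8 overlapped the range of mt-Nd4. mt-Nd3 and then mt-Nd2 stood below them without overlap. Complex I held 24.9% of the protein gene TPM in replicate 2 and 25.8% in replicate 1 for 7 of the 13 genes, and a mean of 42.9% if the 3 copies were left out.

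mt-Cytb (chrM:14145-15288) encodes cytochrome b, the one mitochondrial subunit of complex III, which hands electrons from ubiquinol to cytochrome c. It had 2942 TPM in replicate 2 and 3240 TPM in replicate 1, a range that overlapped that of mt-Nd1. It was 1.93-fold above mt-Nd5 in replicate 2 and 1.96-fold in replicate 1.

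mt-Nd6 (chrM:13552-14070) is the 1 protein gene on the minus strand, transcribed from the light-strand promoter, and was the lowest. It had 350 TPM in replicate 2 and 372 TPM in replicate 1, from 4665 and 4368 counts. The median of the other 12 protein genes was 2151 TPM in replicate 2 against 2699 TPM for replicate 1. The next lowest gene, mt-Nd2, was 2.86-fold above mt-Nd6 in replicate 2 and 3.17-fold in replicate 1, with no overlap. mt-Nd6 took 0.876% of the protein gene TPM in replicate 2 and 0.868% in replicate 1, or a mean of 0.454% of their counts and of 1.48% of their TPM with the copies left out. It lies end to end with mt-Nd5 on the opposite strand, and their last 14 bases are complementary. The stretch is in capitals in both sequences.
mt-Nd5 end (chrM:13532-13565, plus strand): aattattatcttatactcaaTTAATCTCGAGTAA
mt-Nd6 end (chrM:13552-13585, minus strand): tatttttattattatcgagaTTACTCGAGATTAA

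The overlap is shorter than a read, so it does not make a read of one gene fit the other. Reads of unprocessed antisense RNA could be told from mt-Nd6 only by strand. The labels name a spike-in profile for stranded libraries, while the strand setting of the counting was not stated.

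**Figure D2:**
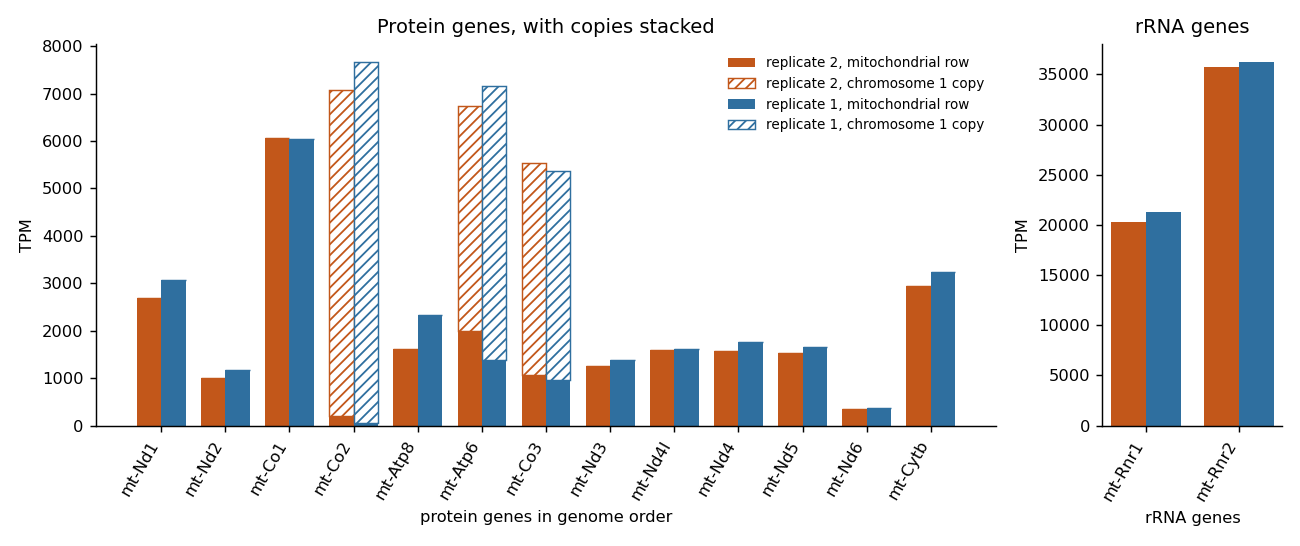
Bars give the TPM of each protein gene in genome order (left) and of each rRNA gene (right) in replicate 2 and replicate 1, with the part assigned to the chromosome 1 copy hatched on top. The 3 genes with copies and mt-Co1 have the tallest bars, mt-Nd6 the shortest, and mt-Atp8 has the widest gap between libraries for its height.

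Sequence features also set mt-Nd6 apart from the other protein genes. G made up 28.1% and C 5.97% of the bases of mt-Nd6 as transcribed. In the other 12 genes G ranged from 5.88% in mt-Atp8 to 16.1% in mt-Co1, and C from 22.1% in mt-Nd3 to 29.97% in mt-Nd4l. T made up 43.7% of mt-Nd6 and at most 32.8% of any other (mt-Nd3). The genes also differ in how they end. In 10 of the 13 the annotated gene ends in a full stop codon, TAA or TAG. Of these, mt-Nd1 and mt-Nd2 share their last 2 bases with the tRNA genes mt-Ti and mt-Tw on the same strand. mt-Atp6 shares its last base with mt-Co3. Where the messengers of these genes end was not tested. mt-Nd4, mt-Co3 and mt-Cytb end 1 base past the last full codon, on a T, which polyadenylation is known to complete to a stop codon. The ends of mt-Cytb and mt-Nd4 follow, with that base in capitals, and the end of mt-Co3 is given above.
mt-Cytb (chrM:15268-15288, plus strand): aaatactaaaattatatccaT
mt-Nd4 (chrM:11524-11544, plus strand): taattacaggcctgacaataT
In the order of levels mt-Co3 had place 4, mt-Cytb place 5 and mt-Nd4 place 8 of 13.

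The rRNA genes were the highest mitochondrial genes even after ribosomal RNA reduction. mt-Rnr2 (chrM:1094-2675), the gene of the large ribosomal subunit rRNA, had 35694 TPM in replicate 2 and 36220.3 TPM in replicate 1, the place 3 of all 81881 rows in both libraries. mt-Rnr1 (chrM:70-1024), the gene of the small subunit rRNA, had 20259 TPM in replicate 2 and 21280.1 TPM in replicate 1, place 5 in both. mt-Rnr2 was thus 1.76-fold above mt-Rnr1 in replicate 2 and 1.70-fold in replicate 1. By counts, which grow with length, the ratio was 3.05 in replicate 2 and 2.95 in replicate 1. The ratio in the tissue before reduction was not measured. The summed TPM of both rRNA genes was 55953 in replicate 2 and 57500.4 in replicate 1, above the 39936 and 42812 of all protein genes with copies in replicates 2 and 1.

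The tRNA genes had no counts, and this is a limit of the tables. All 22 are between 59 and 75 nt long, shorter than the read length of 100 nt inferred above, and the gene tables give each an effective length of 0. The shortest and the longest follow, whole, as 1 example each of a gene into which a read of this length cannot fall.
mt-Ts2, a serine tRNA (chrM:11613-11671, plus strand): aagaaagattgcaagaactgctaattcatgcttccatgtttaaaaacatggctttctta
mt-Tl1, a leucine tRNA (chrM:2676-2750, plus strand): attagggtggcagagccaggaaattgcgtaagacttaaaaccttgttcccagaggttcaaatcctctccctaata

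Of all 2398 annotated genes shorter than 100 nt, 0 had a count in either library. In the other quantification the tRNA genes had effective lengths of 21.8 to 25.3 nt in replicate 2 and 21.2 to 24.5 nt in replicate 1, and 0 counts as well. No level and no upper limit can be given for the 14 tRNA genes on the plus strand or the 8 on the minus strand. The 3 shortest protein genes, mt-Atp8 among them, were at or near 0 in that quantification too. mt-Nd3 had 9900 counts in replicate 2 and 9690 in replicate 1 in the gene tables, against 6 and 13 there. mt-Nd4l had 9954 and 8902 counts in the gene tables, against 1 and 2 there.

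The order among the high genes depended on the estimate. In the other quantification, with copies summed, mt-Co2 led with 13829 TPM in replicate 2 and 14897 in replicate 1, and mt-Co1 followed with 11259 TPM and 11358 TPM. mt-Atp6 came after both with 9659 TPM in replicate 2 and 10164 TPM in replicate 1. In the gene tables mt-Atp6 was above mt-Co1 in both libraries. All 7 copies of the block were also summed, with copy counts scaled by the effective length of the mitochondrial gene. On that measure mt-Co1 (6805 TPM) was above mt-Atp6 (6714 TPM) in replicate 2 and below it in replicate 1 (6709 TPM and 7124 TPM). With the TPM of Gm29216 added in full, mt-Co1 would be above mt-Atp6 in both libraries. mt-Nd6 was the lowest of the 10 protein genes that the other quantification could measure, at 778 TPM in replicate 2 and 842 TPM in replicate 1.

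Mitochondrial subunit genes stood above nuclear genes of the same complexes. The median of the 13 protein genes was 1622 TPM for replicate 2 and 2320.5 TPM for replicate 1. That of 33 nuclear subunit genes of complexes I, III, IV and V was 218.5 TPM for replicate 2 and 198 TPM for replicate 1. The ratio was 7.42 in replicate 2 and 11.7 in replicate 1. mt-Atp8 happened to be the median gene in both libraries, and without it the ratio was 9.75 in replicate 2 and 12.2 in replicate 1. In the gene tables all 13 mitochondrial genes exceeded, in both libraries, the highest nuclear gene listed for their own complex. In the other quantification, where the 3 shortest protein genes were at or near 0, the mean ratio was 6.41.

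By complex, the median of the mitochondrial genes was 12.1-fold that of the nuclear genes for complex I in replicate 2 and 14.5-fold in replicate 1. For complex III the ratio was 16.4 in replicate 2 and 19.6 in replicate 1, for complex IV 22.2 and 26.4, and for complex V 14.1 and 17.1. Among 9 nuclear complex I genes, Ndufb8, of the membrane arm, was highest at 212 ± 9.45 TPM, the core subunit gene Ndufv2 was at 167 ± 8.07 TPM, and Ndufs8 was lowest at 68.8 ± 1.78 TPM. The 6 genes of complex III ran from Uqcrq (281 ± 18.9 TPM), Uqcrc1 (214 ± 30.9 TPM) and Uqcrb (199.5 ± 2.43 TPM) down to the Rieske protein gene Uqcrfs1 (114 ± 8.70 TPM). The 10 of complex IV ran from Cox4i1 (510 ± 38.8 TPM), Cox6b1 (387 ± 11.7 TPM) and Cox5b (348 ± 17.6 TPM) down to the muscle isoform gene Cox7a1 (98.6 ± 10.8 TPM). The 8 of complex V ran from the catalytic subunit gene Atp5b (1240 ± 109.9 TPM), Atp5a1 (517 ± 35.8 TPM) and Atp5o (429 ± 21.4 TPM) down to Atp5f1 (171 ± 5.20 TPM). The lowest gene of each complex was the lowest in the other quantification too, but the order above it changed. There Cox7c led complex IV with 1063 TPM in replicate 2 and 1012 TPM in replicate 1, above Cox4i1 with 981 TPM and 948 TPM. Cyc1 (454 TPM and 409 TPM) was level with Uqcrq (453 TPM and 410 TPM) in replicates 2 and 1, and Atp5o was below Atp5a1 in replicate 2 and above it in replicate 1.

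**Figure D3:**
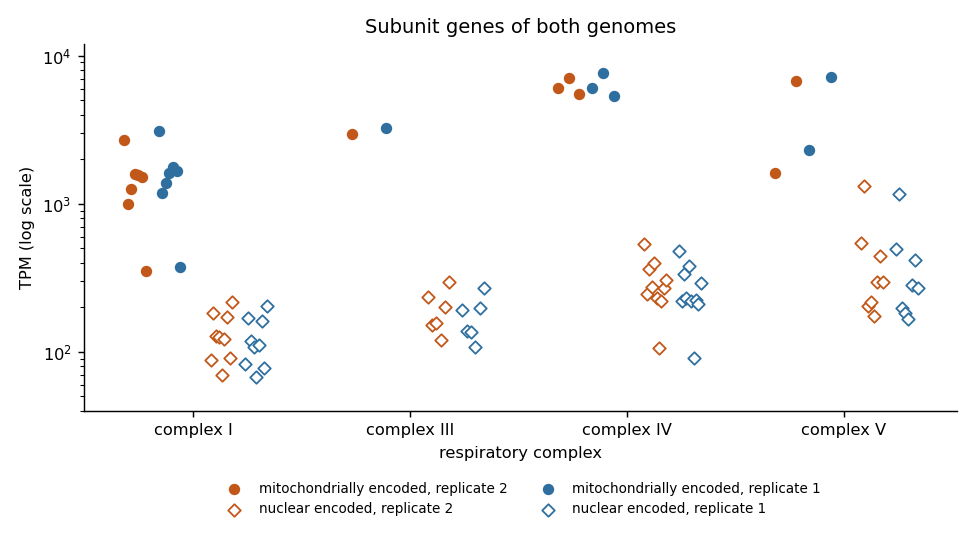
Each point is the TPM, on a log scale, of 1 subunit gene in 1 library, by complex, with mitochondrially encoded genes (circles, copies summed) left of nuclear genes (diamonds). The circles of each complex lie above its diamonds, and mt-Nd6 is the lowest circle at 350 TPM and 372 TPM in replicates 2 and 1.

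In the gene tables, the nuclear genes that make and mature mitochondrial RNA were detected at levels below those of all 13 mitochondrial protein genes. The median of the 9 transcription genes was 7.62 TPM for replicate 2 and 7.99 TPM for replicate 1. They were led by Mrpl12 (45.8 ± 1.58 TPM), a ribosomal protein reported to bind the polymerase, the packaging and transcription factor gene Tfam (20.1 ± 2.62 TPM) and Mterf3 (12.9 ± 0.247 TPM), with Mterf1a lowest (1.24 ± 0.226 TPM). The median of the 15 RNA processing genes was 9.94 TPM for replicate 2 and 10.6 TPM for replicate 1. Slirp (62.2 ± 3.12 TPM), whose product stabilises mitochondrial messengers, led them, followed by Fastk (48.7 ± 1.62 TPM), reported to act on the mt-Nd6 messenger, and the RNA granule gene Grsf1 (39.2 ± 3.25 TPM). Fastkd5 was lowest at 2.63 ± 0.247 TPM. Slirp did not lead in the other quantification, with 21.996 TPM in replicate 2 and 64.6 TPM in replicate 1, below Fastk (93.5 TPM and 84.6 TPM) and Grsf1 (83.2 TPM and 106 TPM) in both libraries. There mt-Atp8, mt-Nd4l and mt-Nd3, at or near 0, also lay below Fastk and Grsf1.

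Between the libraries, mitochondrial genes were mostly lower in replicate 2 and by small amounts. The log2 ratio of replicate 2 over replicate 1 was scaled by the trimmed mean of M values over all genes, and 1 library against 1 allows no test. Of the 13 protein genes, 11 had a ratio below 0, with a median of -0.11 and a range from -0.51 to 0.05. Both rRNA genes were below 0 as well, with -0.02 for mt-Rnr2 and -0.07 for mt-Rnr1. Of the 4682 genes whose counts averaged 1000 or more, these 15 included, 36.6% had a ratio below 0, and their median was 0.04. With lower limits of 100 and 10 counts the share below 0 was 44.7% and 50.4%. Of the 15 mitochondrial genes 0 were over 2-fold apart, beside 0.278% of the 4682 genes, 0.702% with the limit of 100 and 3.74% with the limit of 10.

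mt-Atp8 was furthest from 0 at -0.51, and 0.577% of the 4682 genes were lower still. mt-Nd2 at -0.23, mt-Nd1 at -0.19, mt-Nd4 at -0.16, mt-Nd3 at -0.15, mt-Cytb at -0.13, mt-Nd5 at -0.11, mt-Co2 at -0.11, mt-Nd6 and mt-Atp6 at -0.08 each and mt-Nd4l at -0.02 followed. mt-Co1 at 0.01 and mt-Co3 at 0.05 were the 2 above 0, and with spike-in scaling they were at -0.13 and -0.09. By complex, the median was -0.15 for complex I, -0.13 for the 1 gene of complex III, 0.01 for complex IV and -0.30 for the 2 genes of complex V. The complex V value is the midpoint of mt-Atp8 and mt-Atp6. Apart from mt-Atp8 and mt-Nd2, the ratios of the single genes lay within the interval from -0.20 to 0.25. That interval held the middle of the 4682 genes, between their 5th and 95th percentiles. The own rows of the copied genes, taken alone, gave 1.58 for mt-Co2 and 0.52 for mt-Atp6, against -0.11 and -0.08 with the copies.

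The nuclear subunit genes went the other way, which was also the direction of most of the 4682 genes averaging 1000 or more counts. All 33 had a ratio above 0, with a median of 0.15 and a range from 0.01 for Cox7b to 0.35 for Cox7c. Of the 4682 genes, 36.6% had a ratio below 0. The median of the mitochondrial protein genes lay 0.26 below that of the nuclear subunit genes on the log2 scale. Spike-in scaling lowered the median of all genes by 0.14 and put the mitochondrial protein genes at -0.25 (13 of 13 below 0, mt-Co1 and mt-Co3 included) and the nuclear genes at 0.00. The median of all genes was then -0.14, so most genes were below 0 as well. With library size as the scaling, mt-Co1 was below 0 and 12 of 13 were lower, beside a median of all genes of -0.05. In the other quantification 8 of 10 measured mitochondrial protein genes were below 0, at a median of -0.04, against 0.18 for the nuclear genes, and mt-Rnr2 was at 0.02. The median of all genes was -0.01 there. The libraries also differed in the red cell, neutrophil and liver markers given above, and in muscle markers, whose median ratio was 0.26. Their part in the mitochondrial ratios was not tested.

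**Figure D4:**
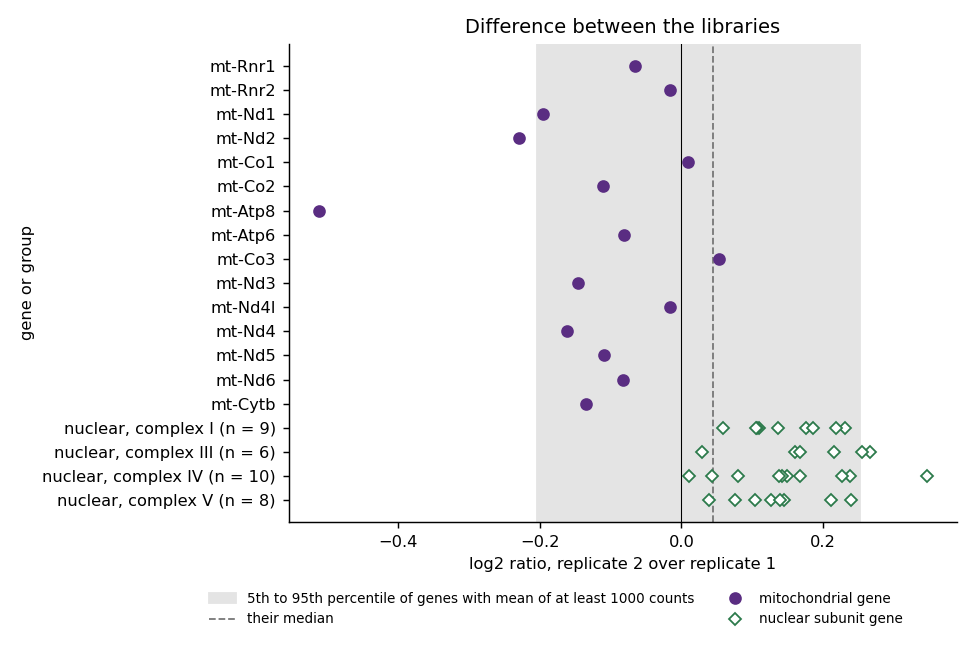
Each circle is the log2 ratio of replicate 2 over replicate 1 for 1 mitochondrial gene (copies summed) and each diamond that of a nuclear subunit gene, with the 5th to 95th percentile of genes whose counts averaged 1000 or more in grey and their median dashed. All diamonds lie right of 0, and 13 of 15 circles lie left of it, mt-Atp8 furthest at -0.51. Of the 4682 genes behind the grey band, 36.6% lie left of 0. With spike-in scaling all 13 protein genes would lie left of 0, as would the median of all genes at -0.14.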

How the data were processed

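Per the file headers and accompanying notes, the authors deposited for each library a gene table of expected counts and TPM, made from transcriptome alignments on mm10 with GENCODE M21, and a separate transcript table of estimated counts and TPM made from the reads. That table, summed per gene, is the other quantification. The signal-type bounds of the TPM interval are the authors' own. The aligner and the programs were not given in the labels or headers. The gene tables list 26248 further tRNA entries and 96 spike-ins.

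Symbols came from the transcript tables and coordinates (1-based) from GENCODE M21, and all 37 genes matched. Sequence stretches were compared exactly, on both strands, with all GENCODE M21 transcripts. The 3 copied genes (mt-Co2, mt-Atp6, mt-Co3) had the TPM of their copies added. In the TPM sums over all 7 copies, the counts of each copy were scaled by the effective length of its mitochondrial gene. Expected counts were rounded, the copies added, and edgeR 4.0.16 (R 4.3.3) gave trimmed mean scaling over genes averaging 10 or more counts and log2 ratios with a prior count of 2, checked on simulated data. Errors are SDs of the 2 libraries. DESeq2 1.42.0 size factors were an alternative. Python 3.11.15, pandas 2.3.3 and numpy 2.4.6 were used for the rest.

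Genes and lists were chosen with earlier results of these data known. From nuclear lists, the 3 highest and the lowest gene by mean TPM were named, except for 1 that is not reported here, and Cox7b, Cox7c and Cyc1 were added after their values were seen. Tbrg4 stood for Fastkd4.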

Additional observations from a re-analysis of the deposited data

How the results depend on the processing

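No paired analysis was possible because the design has 1 group, so there is no contrast to block on. The measure of a move was the SD between libraries, or for the log2 ratio the SD of 0.139 over the 13 genes. The mitochondrial share of counts (9.30%) was 8.39% with the copies left out, 9.81% by TPM and 3.17% without the rRNA genes. The median TPM of the protein genes (1971) was 2750.05 in the other quantification, where 3 short genes were near 0, and 1376 as counts scaled by length and library total. The mt-Nd6 share (0.872%) was 1.28% in the other quantification, 1.48% without copies, 0.454% by counts and 0.857% with all 7 copies. The complex I share (25.4%) was 20.4% in the other quantification, 42.9% without copies, 27.4% by counts and 23.5% without mt-Atp8 and mt-Nd4l. The ratio of mt-Rnr2 to mt-Rnr1 (1.73) was 1.91 in the other quantification and 3.00 by counts. The share of counts given to the copies (85.5%) was 64.7% in the other quantification, 72.4% by posterior means and 46.1% over all 7 pairs. The median log2 ratio (-0.11) was -0.25 with spike-ins. The ratio of mitochondrial to nuclear subunit levels (9.56) was 6.41 in the other quantification. Where no reason is given, the cause was not tested. Leaving out 1 library gave 9.004% to 9.61% for the share of counts, 1622 to 2320.5 TPM for the median, 0.868% to 0.876% for mt-Nd6, 24.9% to 25.8% for complex I, 1.70 to 1.76 for the rRNA ratio, 83.1% to 87.8% for the copies and 7.42 to 11.7 for the ratio to nuclear genes, and 0 tRNA genes with counts each time. The sums over all 7 copies, the posterior means and the omission of mt-Atp8 were chosen after seeing the data. Of the 63 alternatives to these summary values, 20 moved by more than the spread. The 63 include those that leave out 1 library, which could not count as moved. Each of 2 values always lies within their SD of the mean. Ratios of single genes did turn, to 1.58 for mt-Co2 and 0.52 for mt-Atp6 with the copies left out, to -0.13 for mt-Co1 and -0.09 for mt-Co3 with spike-ins, to -0.04 for mt-Co1 with library size and -0.01 with the limit of 100 counts, and to 0.02 for mt-Rnr2 in the other quantification. Depth does not limit the protein and rRNA genes, which held at least 4368 counts each with copies summed.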

Other observations

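The other 4 copies of the chromosome 1 block divided their reads in another way. Gm29216, which matches the last part of mt-Co1, held 34294 counts in replicate 2 and 27230.1 in replicate 1, which was 10.97% and 10.03% of its pair with mt-Co1. In the other quantification it took 0.519% and 1.00% in replicates 2 and 1. Gm10222 held 118 counts in replicate 2 and 690 in replicate 1, or 1.17% and 7.19% of its pair with mt-Nd4l, while its posterior mean share was 10.3% and 13.8%. Gm28439, which holds 777 of the 1279 stretches of mt-Nd4, had 0 counts in the gene tables and took 3.16% and 4.81% of its pair in the other quantification in replicates 2 and 1, and Gm28438 held 5.76 and 0 counts in replicates 2 and 1. With Gm10222 added, the log2 ratio of mt-Nd4l was -0.11 in place of -0.02. A similar block on chromosome 2 (Gm13339, Gm13340 and Gm13341) shares 30 stretches with mt-Nd2, 80 with mt-Co1 and 88 with mt-Co2. These genes were named after their values were seen.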
